A study of Arabidopsis thaliana with 20 samples.

Results

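Transcript levels of root cells labelled elongation zone (EZ) were compared with those of root cells labelled meristematic zone (MZ) in Arabidopsis thaliana seedlings at 5 days of age. The comparison rests on 2 libraries of EZ and 2 of MZ, which are 4 of the 20 libraries of a series that sampled both zones at 3, 4, 5, 6 and 7 days. All seedlings, in both groups alike, were of the Col-0 ecotype and carried PET111:GFP, a reporter that marks the columella, the central cells of the root cap. Root sections were turned into protoplasts and the cells lacking GFP were collected by sorting, so that any cell type of the section apart from the columella could be present in a library. The labels call the 2 libraries of a group biological replicates. Genes entered the comparison when they reached 1 FPKM (mapped fragments scaled by transcript length and library depth) in both libraries of either group, which held for 18026 of the 33201 genes in the deposited table.

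A root grows from a meristem at its tip, where cells divide around a small stem cell niche and are rich in ribosomes. Higher up, cells leave the division cycle, elongate by loosening their walls and then differentiate into hair cells, endodermis with its Casparian strip, xylem and phloem. The flanks of the tip are covered by the lateral root cap, whose cells end in programmed death and are shed.

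The labels were first set against markers of these cell types, which were chosen with earlier results of these data known. Summed over CYCB1;1, CDKB2;1, AUR1, KNOLLE, PCNA1 and MCM2, the markers of dividing cells had 118 and 184 FPKM in the EZ libraries, against 38.8 and 64.0 FPKM in the MZ libraries. The dividing cell markers therefore lay on the opposite side from the zone names, and EZ and MZ below mean only the labels of the libraries. Markers of elongating and hair cells (EXPA7, EXPA18, COBL9, LRX1 and PRP3) summed to 455 and 721 FPKM in EZ and 568 and 931 FPKM in MZ, so that the sums overlapped. Both EZ libraries lay below both MZ libraries in EXPA7, COBL9 and LRX1, while EXPA18 and PRP3, which had the largest values, overlapped. None of the 4 seed reserve markers reached 1 FPKM in both libraries of a group, although CRU3 had 2.77 FPKM in EZ replicate 1, and SESA1 was listed at 0 in all 4 libraries. Of 5 markers of photosynthetic tissue, 2 met that limit. RBCS1A, the small subunit of Rubisco, was not among them, with 0 and 2.36 FPKM in EZ and 2.30 and 0.937 FPKM in MZ.

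The libraries of a group were not alike in every cell type. Xylem markers summed to 7.58 FPKM in EZ replicate 1 and 306 FPKM in EZ replicate 2, against 250 and 455 FPKM in MZ. Endodermal markers summed to 799 and 1243 FPKM in EZ, against 353 FPKM in MZ replicate 1 and 1446 FPKM in MZ replicate 2. Thus 1 library of EZ was nearly without transcripts of these xylem markers and 1 library of MZ was low in the endodermal ones. Xylem genes outside the sum varied in EZ replicate 1. FLA11 and MC9 had 13.5 and 108 FPKM there, while MYB46 and LAC4 had 0.211 and 0.0351 FPKM. Root cap markers summed to 552 and 524 FPKM in EZ, against 1431 and 766 FPKM in MZ. In such bulk samples, fewer cells of a type and less RNA per cell cannot be told apart. Depth, worked out from the step that 1 fragment makes in an FPKM value, came to 15.7 M fragments in EZ replicate 1 and more in EZ replicate 2, against 11.7 and 6.56 M in MZ, and 18453 and 18973 genes in EZ, against 16691 and 17562 in MZ, reached 1 FPKM. Over the genes tested, r was 0.947 between the EZ libraries, 0.944 between the MZ libraries and 0.855 to 0.892 between an EZ and an MZ library, on the log2(FPKM + 1) scale.

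**Figure D1:**
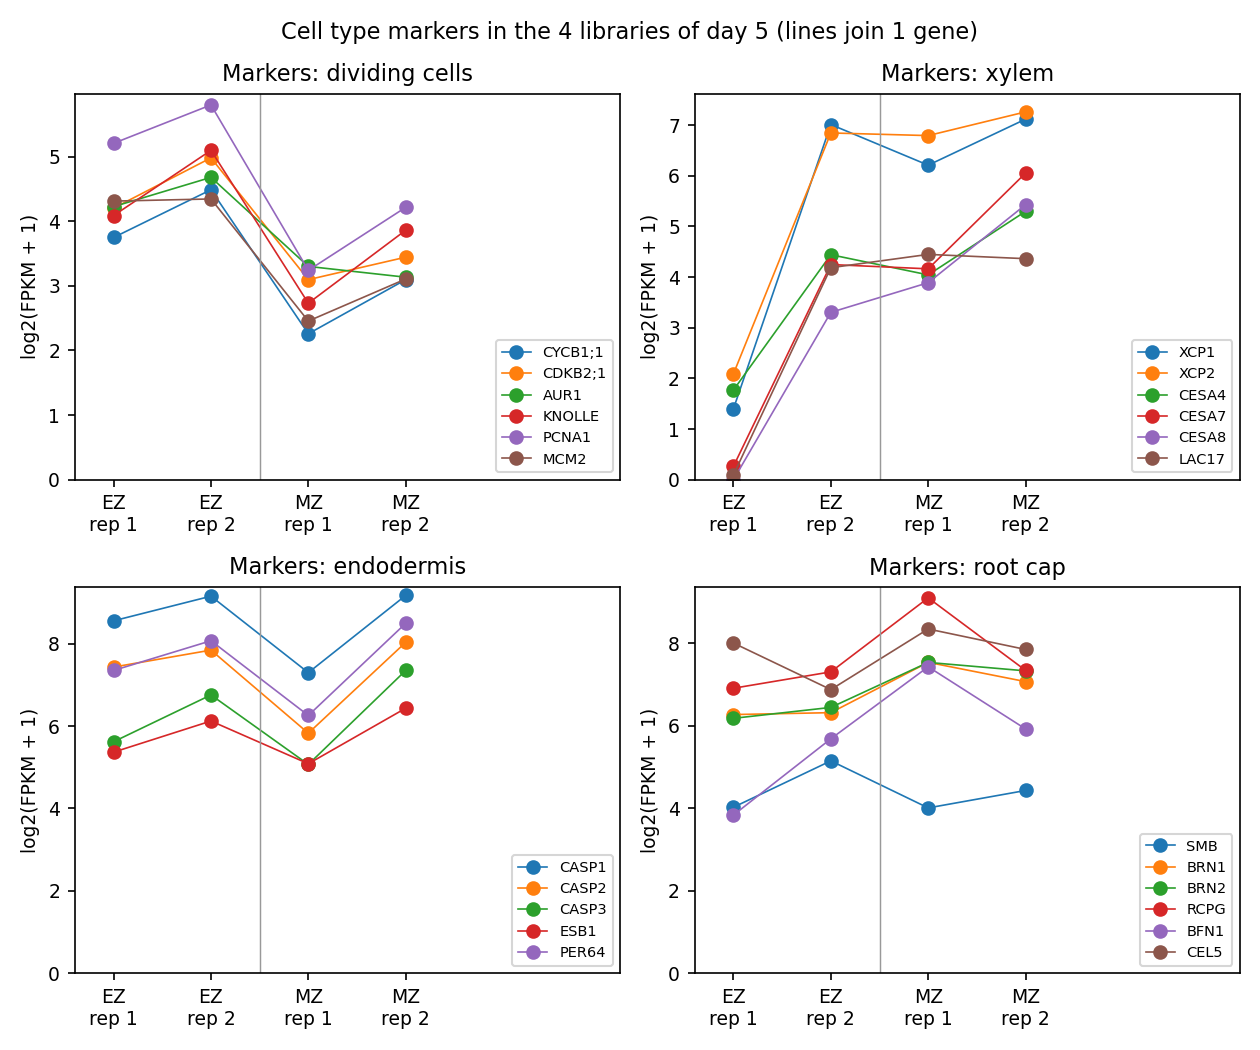
Log2(FPKM + 1) of marker genes of dividing cells, xylem, endodermis and root cap (vertical axes) in the 2 EZ and the 2 MZ libraries of day 5 (horizontal axes), where a line joins the values of 1 gene. Dividing cell markers summed to 118 and 184 FPKM in EZ, against 38.8 and 64.0 FPKM in MZ, while xylem markers were nearly absent from EZ replicate 1 (7.58 FPKM) and endodermal markers lowest in MZ replicate 1 (353 FPKM).

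Which transcripts differed between the zones was tested with limma on log2(FPKM + 1), a scale that understates the change of weakly expressed genes. A mean was fitted for each of the 10 groups of zone and age, all 20 libraries shared 1 estimate of spread, and p-values were adjusted by Benjamini and Hochberg over the 18026 genes. At an adjusted p below 0.05, 102 genes differed (0.566% of those tested), of which 71 were higher in EZ (0.394%) and 31 lower (0.172%). The higher genes held 11 nuclear genes described as ribosomal proteins, 10 identifiers of the plastid genome and 2 members of the heat shock and chaperone list, and the lower held 1 member of the cell death list. Median-of-ratios scaling gave 89 higher and 61 lower. In all 102, both EZ libraries lay on the same side of both MZ libraries. That was also so for 6943 genes with EZ above MZ (38.5%) and 3986 with EZ below MZ (22.1%), and 4073 genes passed an unadjusted p of 0.05. The median difference of all genes, EZ minus MZ, was 0.16, and it was -0.07 after quantile normalisation.

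How many genes passed depended on which libraries set the spread. A fit without the libraries of days 6 and 7, added after the data had been seen, called 1785 genes (9.9%), 1417 of them higher in EZ (7.86%) and 368 lower (2.04%). A fit of the 4 libraries of day 5 alone called 1208 (6.7%), 979 higher (5.43%) and 229 lower (1.27%). All 102 genes were called in the 12-library fit and 99 of them in the 4-library fit. Leaving out 1 library of day 5 left the lone other library to be judged by the spread of the other groups, and the number called was then 3 without EZ replicate 1, 1 without EZ replicate 2, 2 without MZ replicate 1 and 6 without MZ replicate 2. No call changed sign in any of these fits. Counts of list members called are therefore given for the 12 and 4-library fits too where these differ. The lists were chosen with earlier results of these data known, so that their counts and medians describe only the members chosen. Numbers of members with EZ above or below MZ stand beside the shares over all genes, 38.5% above and 22.1% below.

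**Figure D2:**
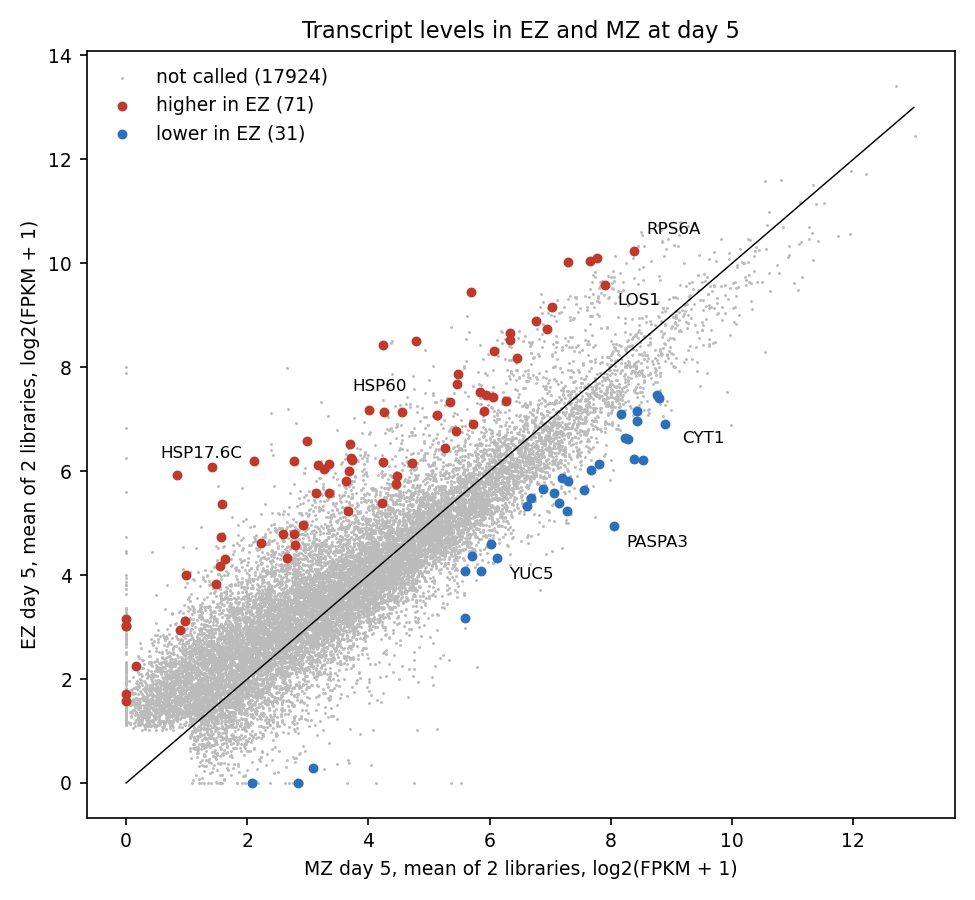
Mean log2(FPKM + 1) over the 2 EZ libraries of day 5 (vertical axis) against that over the 2 MZ libraries (horizontal axis) for each of the 18026 genes tested, with the line of equal level. Red points are the 71 genes higher in EZ and blue points the 31 lower at an adjusted p below 0.05 by limma.

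Heat shock genes held the 3 largest differences among called nuclear genes. Small heat shock proteins bind unfolding proteins, and HSP70, HSP90 and HSP101 refold or disaggregate them. HSP17.6C (AT1G53540), a cytosolic small heat shock protein, had 59.0 and 61.4 FPKM in EZ, against 0.579 and 1.04 FPKM in MZ. The difference was 5.09 ± 0.76 (log2, SE; adjusted p = 0.0207, limma). HSP17.6II (AT5G12020), of another class of the family, had 64.3 and 81.1 FPKM in EZ and 3.96 and 2.78 FPKM in MZ (4.08 ± 0.72, adjusted p = 0.0298). AT1G54050, annotated as an HSP20-like chaperone, had 79.0 and 55.7 FPKM in EZ and 0.360 and 4.19 FPKM in MZ (4.66 ± 0.94, adjusted p = 0.0432). In all 3, the lower EZ library was more than 10 times the higher MZ library. HSP17.4 (AT3G46230), at 82.3 and 110 FPKM in EZ and 6.75 and 7.09 FPKM in MZ (3.599 ± 0.69, adjusted p = 0.0396), shares 65.1% of its 32-base words with transcripts of other genes, so that its reads may be split with theirs.

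Of the 16 tested members of the heat shock and chaperone list, 2 rose in EZ and 0 fell (10 and 0 in the 12-library fit, 10 and 0 in the 4-library fit). Their median difference was 2.04, against 0.16 for all genes. Over the 113 tested genes described as heat shock or HSP20 the median was 0.58, with 66 above and 20 below. Of the 16 on the list, 13 had both EZ libraries above both MZ libraries. BIP3, a chaperone of the endoplasmic reticulum, was the member with EZ below MZ, at 8.05 and 5.22 FPKM against 10.2 and 10.5 FPKM. HSP22 (AT4G10250) had 20.6 and 20.7 FPKM in EZ and 0.115 and 0.618 FPKM in MZ, and did not pass (adjusted p = 0.0552). HSP101 (AT1G74310), the disaggregase, had 14.7 and 19.2 FPKM in EZ and 2.401 and 3.16 FPKM in MZ, and HSFA2 (AT2G26150), a heat shock transcription factor, 17.8 and 8.68 FPKM in EZ and 1.48 and 2.401 FPKM in MZ; neither passed (adjusted p = 0.0892 and 0.121). The factors HSFA7A, HSFB1 and HSFB2A differed by 0.59, 0.36 and 0.10, and none passed.

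The 31 tested genes described as HSP20-like or as small heat shock proteins did not all lie on the EZ side. Both EZ libraries were above both MZ libraries in 19 and below in 5, with a median of 0.88. Of the 31, 4 rose in EZ with 0 falling (11 and 4 in the 12-library fit, 10 and 4 in the 4-library fit). AT2G27140 was listed at 0 in both EZ libraries and had 12.3 and 21.6 FPKM in MZ (adjusted p = 0.0755). AT1G54400 was also listed at 0 in both EZ libraries, with 2.71 and 10.2 FPKM in MZ (adjusted p = 0.0560). RTM2, which restricts the long-distance movement of a virus, had 0.317 and 0 FPKM in EZ and 3.67 and 5.35 FPKM in MZ. These members with EZ below MZ were chosen for mention after their values were seen. Each met the filter only through MZ, the group where it was high.

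Among chaperones of other families, HSP60 (AT3G23990), the mitochondrial chaperonin, rose as well, to 161 and 129 FPKM in EZ, against 10.2 and 22.1 FPKM in MZ (3.18 ± 0.62, adjusted p = 0.0404). All 12 tested genes described as TCP-1/cpn60 chaperonins, which fold proteins such as tubulin and actin in the cytosol or act in the plastid, had both EZ libraries above both MZ libraries. Of them, 3 rose (9 in each of the other fits), with a median difference of 1.37. The largest of those differences was that of AT3G11830, at 74.6 and 75.7 FPKM in EZ and 11.2 and 13.2 FPKM in MZ (2.53 ± 0.43, adjusted p = 0.0298). HSP81-2 (AT5G56030), a cytosolic HSP90, had 425 and 382 FPKM in EZ and 65.9 and 95.9 FPKM in MZ (2.33 ± 0.41, adjusted p = 0.0298). HSP81-2 and the chaperonin family were chosen after their values were seen.

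Of the members that hold a heat shock element core, GAANNTTC, in the 250 bases before the annotated start, promoter stretches are shown for the 3 with the largest differences, to set the motif beside unequal values. Capitals mark this motif, which reads the same on both strands, and other motifs are left in lower case. The sequences are those of the TAIR10.1 assembly of RefSeq, and each is written on the strand of its gene.
HSP17.6C, chr1:19980231-19980268, plus strand: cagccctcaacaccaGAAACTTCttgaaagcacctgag
HSFA2, chr2:11135521-11135613, plus strand: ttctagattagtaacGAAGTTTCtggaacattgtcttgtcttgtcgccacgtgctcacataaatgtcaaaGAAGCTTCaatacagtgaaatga
HSFA7A, chr3:19264939-19265026, plus strand: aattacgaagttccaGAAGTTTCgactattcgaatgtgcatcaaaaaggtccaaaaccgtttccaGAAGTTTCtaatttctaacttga
The core stood in 5 of the 17 promoters of the list (29.4%), against 9.32% of the promoters of genes tested and 9.45% of the 26408 promoters of all nuclear protein coding genes. HSP17.6C, with the largest difference, and HSFA7A, at 54.3 and 79.0 FPKM in EZ and 56.0 and 33.2 FPKM in MZ, hold the same core.

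Genes of ribosomes and their assembly formed the next block. Ribosomal proteins build the particle, while nucleolin, fibrillarin and dyskerin process its RNA in the nucleolus. RPS6A (AT4G31700), a protein of the small subunit, had 1238 and 1172 FPKM in EZ, against 273 and 403 FPKM in MZ (1.86 ± 0.36, adjusted p = 0.0406). Of the 19 tested members of the list, RPS6A alone rose and 0 fell (14 and 0 in the 12-library fit, 10 and 0 in the 4-library fit). The median difference was 1.84, and both EZ libraries were above both MZ libraries in 17. NUC1 (AT1G48920), a nucleolin, had 523 and 493 FPKM in EZ and 23.4 and 98.8 FPKM in MZ (adjusted p = 0.0633). FIB2 (AT4G25630), a fibrillarin, had 393 and 333 FPKM in EZ and 6.06 and 60.5 FPKM in MZ (adjusted p = 0.0725). CBF5 (AT3G57150), dyskerin, had 155 and 168 FPKM in EZ and 1.54 and 32.8 FPKM in MZ (adjusted p = 0.0626). For these 3 nucleolar genes the EZ libraries agreed closely, while MZ replicate 1 lay far under MZ replicate 2. RPL10A (685 and 638 FPKM in EZ, 512 and 756 FPKM in MZ) and BRX1-1 (17.5 and 14.9 FPKM in EZ, 15.1 and 18.0 FPKM in MZ) overlapped.

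The block extended over the family. Of 311 tested nuclear genes described as ribosomal proteins, both EZ libraries were above both MZ libraries in 274 and below in 8, with a median of 1.52. Of these, 11 rose and 1 fell (209 and 1 in the 12-library fit, 125 and 1 in the 4-library fit). AT3G06320, an L33 family protein, had 71.8 and 66.3 FPKM in EZ and 6.12 and 13.6 FPKM in MZ (2.78 ± 0.58, adjusted p = 0.0482). AT3G49910, annotated as an SH3-like translation protein, had 1138 and 942 FPKM in EZ and 107 and 225 FPKM in MZ (2.73 ± 0.48, adjusted p = 0.0298). The gene that fell, AT3G14595, is annotated in the L18ae family and had 52.4 and 62.4 FPKM in EZ and 147 and 142 FPKM in MZ (-1.32 ± 0.25, adjusted p = 0.0360). Factors that work with the ribosome were called too. LOS1 (AT1G56070), the elongation factor that moves the ribosome along the message, had 821 and 722 FPKM in EZ and 214 and 265 FPKM in MZ (1.69 ± 0.30, adjusted p = 0.0298). NACA3 (AT5G13850), of the complex that meets the nascent chain, had 296 and 282 FPKM in EZ and 74.2 and 101 FPKM in MZ (1.73 ± 0.29, adjusted p = 0.0298). AT3G49910, AT3G14595, LOS1 and NACA3 were chosen after their values were seen.

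Motifs known from promoters of plant ribosomal protein genes are the telo-box, AAACCCTA, and the site II element, GGCCCA, searched on both strands. The 2 ribosomal protein genes below hold both motifs and had the largest differences of those that do. Capitals mark both motifs on either strand.
AT2G44860, chr2:18502563-18502693, minus strand: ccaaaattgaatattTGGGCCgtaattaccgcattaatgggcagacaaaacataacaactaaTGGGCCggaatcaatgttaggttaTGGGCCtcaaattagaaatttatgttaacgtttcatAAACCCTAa
AT3G09680, chr3:2970372-2970532, minus strand: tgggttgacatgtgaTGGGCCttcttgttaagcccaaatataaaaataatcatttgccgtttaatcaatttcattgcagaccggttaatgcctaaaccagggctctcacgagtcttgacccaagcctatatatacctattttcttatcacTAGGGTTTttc
AT2G44860 had 149 and 129 FPKM in EZ and 9.81 and 31.3 FPKM in MZ, and AT3G09680 had 15.9 and 7.98 FPKM in EZ and 0.188 and 0.673 FPKM in MZ; neither passed (adjusted p = 0.0570 and 0.0986). The telo-box stood in 16.2% of the 339 ribosomal protein promoters and the site II element in 45.7%, against 3.65% and 17.0% of the promoters of genes tested. The site II element was not particular to ribosomal protein genes. It stood in 50.0% of the promoters of the replication list and 35.3% of those of the heat shock list. In the mitosis and cell expansion lists the shares were 6.9% and 4.17%. Among the 57 promoters of genes called higher the shares were 12.3% and 35.1%, and among the 30 of genes called lower 0 held the telo-box and 1 the site II element.

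The listed genes of replication and mitosis were above MZ in EZ nearly throughout, but none passed the test across the 20 libraries. Wider families were less one-sided. Of 76 tested genes whose description begins with cyclin, 44 had EZ above MZ and 12 below, with a median of 0.70. Of 26 tested kinesins, 15 were above and 5 below, with a median of 0.49. Replication begins with the origin recognition complex (ORC) and the MCM helicase, and PCNA is the clamp that holds the polymerase. PCNA1 (AT1G07370) had 35.9 and 54.8 FPKM in EZ and 8.45 and 17.58 FPKM in MZ (1.78 ± 0.50, adjusted p = 0.0725). PCNA2 (AT2G29570) had 39.5 and 41.0 FPKM in EZ and 4.52 and 8.596 FPKM in MZ (2.50 ± 0.61, adjusted p = 0.0570). MCM3 (AT5G46280) had 21.5 and 22.9 FPKM in EZ and 4.46 and 7.28 FPKM in MZ (1.79 ± 0.46, adjusted p = 0.0629). The libraries of the zones did not overlap in any of the 3. Of the 23 tested replication genes, 19 had both EZ libraries above both MZ libraries and 0 below, with a median of 1.34. In the 12-library fit 8 rose, and in the 4-library fit 6, with 0 falling in either. The licensing factors CDT1A (11.4 and 14.1 FPKM in EZ, 8.87 and 13.04 FPKM in MZ) and CDC6 (9.26 and 4.46 FPKM in EZ, 5.47 and 3.91 FPKM in MZ), which load the helicase, overlapped. MCM5 overlapped too (7.25 and 21.7 FPKM in EZ, 5.29 and 7.59 FPKM in MZ). So did CDC45 (6.07 and 1.65 FPKM in EZ, 0.683 and 2.22 FPKM in MZ).

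E2F factors switch on genes of DNA synthesis, and their sites are written here as TTTCCCGC and TTTGGCGC, searched on both strands. The replication genes below hold such a site and had the largest differences of those that do, and capitals mark it.
RPA70D, chr5:24552859-24552896, minus strand: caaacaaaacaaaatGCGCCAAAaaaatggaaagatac
MCM3, chr5:18773854-18773891, minus strand: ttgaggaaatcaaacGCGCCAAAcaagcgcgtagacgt
ORC2, chr2:15758577-15758600, plus strand: gacgaagaaaaacgcGCGGGAAAa
MCM2, chr1:16970185-16970213, plus strand: aaattggcgccaataTTTCCCGCctaatc
TTTCCCGC stood in 7 of the 24 replication promoters (29.2%) and TTTGGCGC in 4 (16.7%), against 0.638% and 0.385% of the promoters of genes tested. None of the 29 promoters of the mitosis list held either. RPA70D, a subunit of the protein that coats single-stranded DNA, had 22.9 and 21.8 FPKM in EZ and 3.07 and 4.10 FPKM in MZ (adjusted p = 0.0895). ORC2 had 9.54 and 3.59 FPKM in EZ and 1.18 and 1.41 FPKM in MZ, and MCM2 18.9 and 19.3 FPKM in EZ and 4.49 and 7.61 FPKM in MZ.

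All 29 genes of mitosis and cytokinesis were tested, and 25 had both EZ libraries above both MZ libraries, with 0 below and a median of 1.30. In the 20-library fit 0 were called, in the 12-library fit 4 rose and in the 4-library fit 6, with 0 falling. BUB3.1 (AT3G19590), of the spindle checkpoint, had 14.9 and 18.5 FPKM in EZ and 5.62 and 4.21 FPKM in MZ (1.58 ± 0.45, adjusted p = 0.0729). CDKB2;2 (AT1G20930), a mitotic kinase, had 11.2 and 11.6 FPKM in EZ and 1.103 and 3.65 FPKM in MZ (1.99 ± 0.59, adjusted p = 0.0781). CYCB1;1 (AT4G37490), its cyclin partner class, had 12.4 and 21.4 FPKM in EZ and 3.79 and 7.55 FPKM in MZ (1.44 ± 0.92, adjusted p = 0.372). The aurora kinase AUR2 was the member with the lowest difference (-0.14), at 3.64 and 11.97 FPKM in EZ and 7.16 and 7.98 FPKM in MZ. In 10 inhibitors and endocycle genes the median was -0.49, with 2 above and 5 below and 0 called. WEE1 (AT1G02970), a kinase that holds back division, had 9.07 and 3.90 FPKM in EZ and 1.09 and 2.14 FPKM in MZ (adjusted p = 0.0917). SMR5 (AT1G07500), a CDK inhibitor all of whose 32-base words recur in other transcripts, had 0 and 1.36 FPKM in EZ and 6.13 and 3.67 FPKM in MZ (adjusted p = 0.116).

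Genes of the stem cell niche lay mostly on the EZ side, with exceptions. Of 20 tested, 14 had EZ above MZ and 2 below, with a median of 0.87 and 0 called in any of the 3 fits. RGF3 (AT2G04025), a peptide growth factor of the meristem, had 18.3 and 26.0 FPKM in EZ and 2.51 and 11.0 FPKM in MZ (adjusted p = 0.144). MGP (AT1G03840), a zinc finger partner of the SHR and SCR pathway, had 6.84 and 12.1 FPKM in EZ and 1.05 and 4.25 FPKM in MZ (adjusted p = 0.137). PLT1 (AT3G20840), a master regulator of the niche, had 6.03 and 13.6 FPKM in EZ and 0.665 and 6.91 FPKM in MZ, so that the groups overlapped. WOX5 (AT3G11260), the marker of the quiescent centre, was on the other side, with 0.233 and 0.209 FPKM in EZ and 1.098 and 4.5 FPKM in MZ (adjusted p = 0.291).

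**Figure D3:**
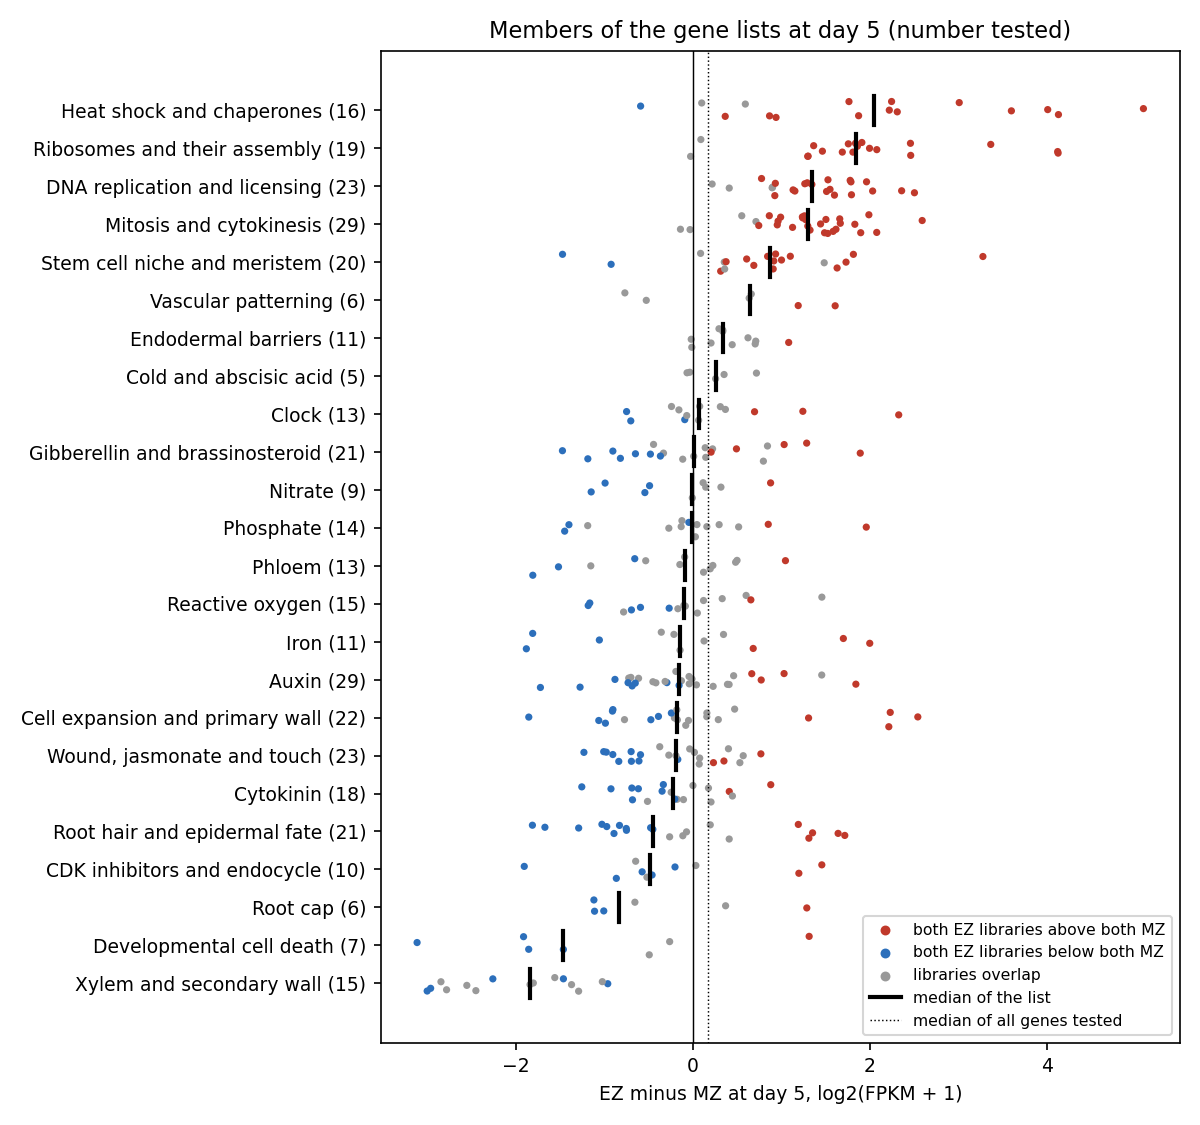
EZ minus MZ difference at day 5 on the log2(FPKM + 1) scale (horizontal axis) of each tested member of the gene lists with at least 5 tested members (rows, number tested in parentheses), coloured by whether both EZ libraries lay above or below both MZ libraries or overlapped. Black bars are list medians, which run from -1.84 for xylem to 2.04 for heat shock, and the dotted line is the median of all genes, 0.16.

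Identifiers of the plastid genome were the other large block among the higher genes. Of the 130 deposited, 68 were tested, and both EZ libraries were above both MZ libraries in 59 and below in 3, with a median of 1.84. Of these 10 rose and 0 fell (37 and 1 in the 12-library fit, 32 and 1 in the 4-library fit). ATCG00640 had 373 and 320 FPKM in EZ and 15.02 and 21.5 FPKM in MZ (4.19 ± 0.53, adjusted p = 0.00628). ATCG00300 had 395 and 335 FPKM in EZ and 14.9 and 46.9 FPKM in MZ (3.72 ± 0.46, adjusted p = 0.00575). Neither is paired with a name in the sources used here. Of 141 mitochondrial genome identifiers 46 were tested, with EZ above MZ in 23 and below in 12, a median of 0.45, and 0 called higher and 1 lower (1 and 1 in each of the other fits). RBP31 (AT4G24770), a nuclear gene for a chloroplast RNA-binding protein, rose as well, with 19.0 and 34.0 FPKM in EZ and 1.53 and 2.45 FPKM in MZ (3.16 ± 0.54, adjusted p = 0.0298).

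The 4 remaining genes with the largest rises are less well described. AT1G29418, annotated as uncharacterized, had 48.2 and 33.3 FPKM in EZ and 1.94 and 2.08 FPKM in MZ (3.77 ± 0.68, adjusted p = 0.0298). AT1G30880, also uncharacterized, had 93.1 and 88.3 FPKM in EZ and 8.32 and 17.1 FPKM in MZ (2.82 ± 0.48, adjusted p = 0.0298). AT1G64600, annotated with copper binding and methyltransferase, had 13.9 and 16.1 FPKM in EZ and 0.504 and 1.61 FPKM in MZ (3.01 ± 0.57, adjusted p = 0.0393). AT1G63470, an AT-hook DNA-binding protein, had 53.9 and 78.4 FPKM in EZ and 8.02 and 9.30 FPKM in MZ (2.78 ± 0.46, adjusted p = 0.0298). In each, both EZ libraries lay above both MZ libraries. AT3G50764, without a transcript model in the annotation, had 8.35 and 7.46 FPKM in EZ and was listed at 0 in both MZ libraries (adjusted p = 0.00181). It met the filter only through EZ, the group where it was high, and it was chosen after its values were seen. Of the called genes, 7 were listed at 0 in both libraries of the lower group.

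**Figure D4:**
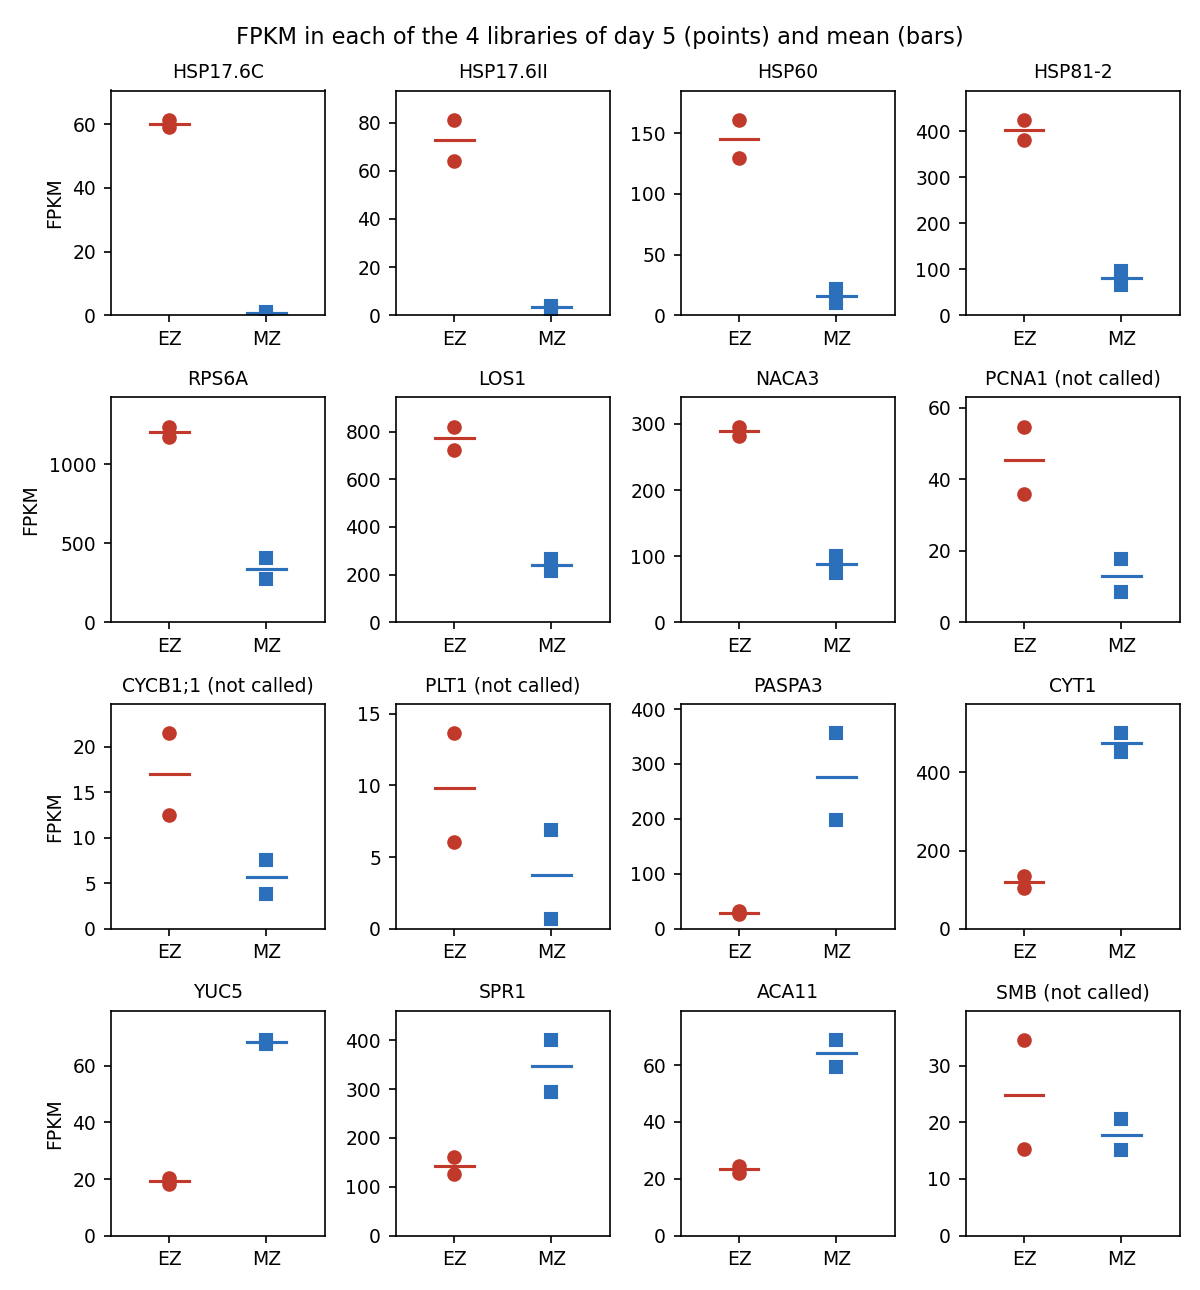
FPKM (vertical axes, each from 0) in the 2 EZ libraries (red circles, left) and the 2 MZ libraries (blue squares, right) of day 5 for 16 genes, with bars at the group means. HSP17.6C reached 59.0 and 61.4 FPKM in EZ, against 0.579 and 1.04 FPKM in MZ, and PASPA3 27.1 and 32.5 FPKM in EZ, against 356 and 198 FPKM in MZ; panels marked as not called did not pass.

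The largest fall among the called genes was that of a gene of programmed cell death. PASPA3 (AT4G04460), an aspartyl protease used as a marker of cells preparing to die, had 27.1 and 32.5 FPKM in EZ, against 356 and 198 FPKM in MZ (-3.12 ± 0.52, adjusted p = 0.0298). It was the member called among 7 tested cell death genes, of which 4 had EZ below MZ and 1 above, with a median of -1.47; the 12-library fit called 1 member in each direction and the 4-library fit 1 lower. BFN1 (AT1G11190), a nuclease of dying cells, had 13.3 and 50.4 FPKM in EZ and 172 and 59.7 FPKM in MZ. RNS3 (AT1G26820), a ribonuclease of the same programme, had 52.1 and 102 FPKM in EZ and 315 and 132 FPKM in MZ. KIRA1 (AT4G28530), a NAC factor known from stigma cell death, was on the other side, at 1.31 and 1.67 FPKM in EZ and listed at 0 in both MZ libraries (adjusted p = 0.0545). Another protease, AT4G16190 of the papain family, fell to 37.9 and 34.9 FPKM in EZ, against 208 and 114 FPKM in MZ (-2.05 ± 0.32, adjusted p = 0.0227). AT1G03070, of the Bax inhibitor family, fell to 7.34 and 8.79 FPKM in EZ, against 65.6 and 33.9 FPKM in MZ (-2.42 ± 0.48, adjusted p = 0.0427).

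Cell death takes place in both the root cap and the xylem, whose markers were also lower in EZ in part. Of the 6 root cap genes 3 had EZ below MZ and 1 above, with a median of -0.83 and 0 called (2 lower in the 12-library fit, 1 lower in the 4-library fit). RCPG (AT1G65570), a polygalacturonase of the shedding cap, had 119 and 158 FPKM in EZ and 549 and 161 FPKM in MZ (adjusted p = 0.302). BRN1 (AT1G33280), a cap maturation factor, had 76.3 and 78.8 FPKM in EZ and 185 and 134 FPKM in MZ (adjusted p = 0.278). SMB (AT1G79580), a factor of the lateral cap, had 15.3 and 34.5 FPKM in EZ and 15.1 and 20.6 FPKM in MZ, so that the groups overlapped. FEZ (AT1G26870), of the cap stem cells, had 5.88 and 5.09 FPKM in EZ and 1.595 and 1.72 FPKM in MZ (adjusted p = 0.225). The EZ libraries, at 27.1 and 32.5 FPKM of PASPA3, had xylem marker sums of 7.58 and 306 FPKM, and the part of either cell type in its fall was not tested.

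Xylem genes had the lowest median of any list, -1.84 over 15 tested members, with 5 below and 0 above and 0 called in any of the 3 fits. This median rested on EZ replicate 1, without which it was -0.44. MYB46 (AT5G12870), a switch for the secondary wall, had 0.211 and 20.8 FPKM in EZ and 28.4 and 53.8 FPKM in MZ (adjusted p = 0.251). CESA7 (AT5G17420), a cellulose synthase of that wall, had 0.201 and 18.0 FPKM in EZ and 16.9 and 65.3 FPKM in MZ (adjusted p = 0.254). XCP1 (AT4G35350), a protease of dying vessels, had 1.64 and 128 FPKM in EZ and 72.9 and 138 FPKM in MZ, and its difference changed sign without EZ replicate 1. In all 3, EZ replicate 1 was the lowest of the 4 libraries. Among 11 endodermal genes 10 overlapped, with a median of 0.34 that was -0.41 without MZ replicate 1. CASP1 (AT2G36100), a scaffold of the Casparian strip, had 376 and 570 FPKM in EZ and 156 and 577 FPKM in MZ. ASFT (AT5G41040), of suberin synthesis, had 20.4 and 20.9 FPKM in EZ and 5.90 and 14.2 FPKM in MZ (adjusted p = 0.485), and CASP5 22.4 and 52.6 FPKM in EZ and 7.32 and 55.9 FPKM in MZ.

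Phloem genes split, with 1 of 13 above and 3 below, where the shares over all genes were 38.5% and 22.1%. Across the 20 libraries 0 were called, and each of the other fits called 1 lower. NEN4 (AT4G39810), a nuclease that clears the sieve element nucleus, had 0.226 and 0 FPKM in EZ and 1.82 and 4.36 FPKM in MZ (adjusted p = 0.104). SEOR1 (AT3G01680), a sieve element filament protein, had 0 and 0.561 FPKM in EZ and 3.99 and 1.58 FPKM in MZ (adjusted p = 0.191). SUC2 (AT1G22710), the companion cell sucrose transporter, had 17.5 and 34.9 FPKM in EZ and 31.0 and 9.47 FPKM in MZ. In the vascular patterning list 2 of 6 had EZ above MZ and 0 below, and 1 rose in the 12-library fit. LHW (AT2G27230), which promotes divisions in the young vasculature, had 12.9 and 22.7 FPKM in EZ and 3.42 and 7.06 FPKM in MZ (adjusted p = 0.143), and PHB (AT2G34710) 5.08 and 10.6 FPKM in EZ and 1.62 and 4.19 FPKM in MZ.

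Genes of auxin handling stood among the genes that fell. AT2G17500, annotated in the auxin efflux carrier family, had 82.0 and 64.7 FPKM in EZ, against 372 and 368 FPKM in MZ (-2.33 ± 0.28, adjusted p = 0.00575). YUC5 (AT5G43890), a flavin monooxygenase of auxin synthesis, had 20.3 and 18.1 FPKM in EZ, against 67.6 and 69.1 FPKM in MZ (-1.78 ± 0.37, adjusted p = 0.0450). Both MZ libraries nearly coincided in each gene. Neither is on the auxin list, of whose 29 tested members 0 were called, 4 had EZ above MZ and 8 below, with a median of -0.16; each of the other fits called 1 lower. Its member YUC9 had 19.1 and 23.56 FPKM in EZ and 49.5 and 56.4 FPKM in MZ. IAA14 (AT4G14550), a repressor of auxin response, had 15.8 and 9.14 FPKM in EZ and 29.0 and 61.3 FPKM in MZ (adjusted p = 0.0562), and IAA17 (AT1G04250) 327 and 274 FPKM in EZ and 413 and 565 FPKM in MZ (adjusted p = 0.127). PIN2, the efflux carrier of the outer tissues, had 187 and 138 FPKM in EZ and 120 and 85.1 FPKM in MZ, while the influx carrier AUX1 had 121 and 151 FPKM in EZ and 156 and 176 FPKM in MZ.

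The rest of the 10 largest falls belong to the secretory pathway, the wall or no described process. CYT1 (AT2G39770), which makes GDP-mannose for ascorbate and the cell wall, had 136 and 104 FPKM in EZ, against 500 and 452 FPKM in MZ (-1.99 ± 0.30, adjusted p = 0.0207). AT5G60460, the beta subunit of the Sec61 translocon that carries proteins into the endoplasmic reticulum, had 53.6 and 31.1 FPKM in EZ, against 114 and 173 FPKM in MZ (-1.75 ± 0.28, adjusted p = 0.0227). AT1G70770, a transmembrane protein of unknown function, had 96.7 and 57.1 FPKM in EZ, against 307 and 356 FPKM in MZ (-2.14 ± 0.34, adjusted p = 0.0227). In all 3, both EZ libraries lay below both MZ libraries. AT5G20700, described as senescence-associated, had 45.3 and 52.9 FPKM in EZ, against 158 and 221 FPKM in MZ (-1.91 ± 0.29, adjusted p = 0.0207). AT2G44410, a RING/U-box protein, had 17.58 and 14.4 FPKM in EZ, against 58.2 and 56.2 FPKM in MZ (-1.78 ± 0.36, adjusted p = 0.0436). Chosen after its values were seen, SPR1 (AT2G03680), a microtubule-associated protein needed for straight growth, had 160 and 126 FPKM in EZ and 295 and 400 FPKM in MZ (-1.27 ± 0.25, adjusted p = 0.0403). ACA11 (AT3G57330), a calcium pump of the vacuole chosen in the same way, had 22.2 and 24.6 FPKM in EZ and 59.5 and 68.8 FPKM in MZ (-1.42 ± 0.28, adjusted p = 0.0427).

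Genes of cell expansion and root hairs passed in no case across the 20 libraries. Of 22 expansion genes 4 had EZ above MZ and 8 below, with a median of -0.18, and of 21 root hair and epidermal genes 5 and 11, with a median of -0.46. In the 12-library fit 3 expansion genes rose and 1 hair gene fell, and in the 4-library fit 2 expansion genes rose and 1 fell while 2 hair genes fell. EXPA4 (AT2G39700), a wall-loosening expansin, had 36.5 and 25.5 FPKM in EZ and 2.64 and 7.04 FPKM in MZ (adjusted p = 0.0665). CESA1 (AT4G32410), a cellulose synthase of growing walls, had 136 and 105 FPKM in EZ and 242 and 236 FPKM in MZ (adjusted p = 0.0892). Expansins were thus found on both sides, since EXPA7 (AT1G12560), the expansin of hair cells, had 40.2 and 39.3 FPKM in EZ and 113 and 147 FPKM in MZ (adjusted p = 0.136). LRX2 (AT1G62440), a wall protein of hairs, had 31.6 and 30.6 FPKM in EZ and 65.8 and 91.8 FPKM in MZ (adjusted p = 0.130). Regulators of the non-hair fate were found on both sides. WER lay above MZ in EZ (33.4 and 44.3 FPKM in EZ, 11.1 and 20.08 FPKM in MZ). EGL3 did too (15.5 and 6.20 FPKM in EZ, 1.73 and 3.03 FPKM in MZ). GL3 did as well (5.17 and 5.45 FPKM in EZ, 1.44 and 2.14 FPKM in MZ). MYB23 lay below MZ (19.2 and 21.0 FPKM in EZ, 24.5 and 31.8 FPKM in MZ), and GL2 and TTG1 overlapped.

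The lists for hormones, reactive oxygen, wounding, cold, nutrients and the clock had medians between -0.23 and 0.25, and none of their members was called across the 20 libraries. In the 12-library fit 3 wound, 3 iron, 2 phosphate and 1 gibberellin or brassinosteroid genes fell, and 1 gene each of the gibberellin and brassinosteroid, nitrate and clock lists rose. In the 4-library fit 1 wound, 2 iron, 2 phosphate, 1 nitrate and 1 gibberellin or brassinosteroid genes fell, and 2 iron genes rose. Of 18 cytokinin genes 2 had EZ above MZ and 8 below. ARR3 (AT1G59940), a response regulator, had 29.1 and 15.1 FPKM in EZ and 38.1 and 69.6 FPKM in MZ (adjusted p = 0.0896), and ARR1 (AT3G16857), which turns cytokinin response on, 34.8 and 37.0 FPKM in EZ and 60.4 and 51.3 FPKM in MZ (adjusted p = 0.182). Among 21 gibberellin and brassinosteroid genes, 5 had EZ above MZ and 7 below. BR6OX2 (AT3G30180), an enzyme of brassinosteroid synthesis, had 14.2 and 23.3 FPKM in EZ and 2.49 and 6.71 FPKM in MZ (adjusted p = 0.0989), and BAS1 (AT2G26710), which inactivates brassinosteroids, 7.58 and 10.6 FPKM in EZ and 24.8 and 28.8 FPKM in MZ (adjusted p = 0.0828). The synthesis genes DWF4, CPD, BR6OX1 and ROT3 overlapped. Of 15 reactive oxygen genes 1 was above and 5 below, and PER57 (AT5G17820), a peroxidase, had 425 and 509 FPKM in EZ and 819 and 1336 FPKM in MZ (adjusted p = 0.188). The superoxide dismutase CSD1 had 342 and 268 FPKM in EZ and 488 and 430 FPKM in MZ.

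Both groups were made from digested tissue. Wound genes were abundant in both, and whether digestion had a part in their levels was not tested. Of 23 wound, jasmonate and touch genes 3 had EZ above MZ and 10 below. JAZ1 (AT1G19180), a repressor that jasmonate induces, had 480 and 572 FPKM in EZ and 998 and 884 FPKM in MZ (-0.84 ± 0.25, adjusted p = 0.0759), and WRKY40 (AT1G80840) 199 and 211 FPKM in EZ and 330 and 519 FPKM in MZ (adjusted p = 0.0727). Most genes of the heat shock list lay higher in EZ, and the part of digestion in that was not tested either. Cold and abscisic acid genes, 5 tested, all overlapped, among them KIN1 (31.4 and 25.3 FPKM in EZ, 27.1 and 10.2 FPKM in MZ) and DREB1A (2.54 and 5.67 FPKM in EZ, 1.70 and 4.36 FPKM in MZ).

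Of 11 iron genes 3 had EZ above MZ and 3 below. For this list and the phosphate, nitrate and clock lists, the shares over all genes were 38.5% above and 22.1% below. FIT (AT2G28160), the regulator of iron uptake, had 18.8 and 17.1 FPKM in EZ and 49.8 and 85.8 FPKM in MZ (-1.81 ± 0.45, adjusted p = 0.0585). FRO2 (AT1G01580), the ferric reductase that FIT controls, had 11.7 and 7.39 FPKM in EZ and 54.2 and 25.3 FPKM in MZ (adjusted p = 0.0727). IRT1, the main iron transporter, was not tested, at 0 and 0.0451 FPKM in EZ and 0.543 and 0 FPKM in MZ. In the phosphate list, with 2 of 14 above and 3 below, the pyrophosphatase gene PS2 (15.6 and 25.7 FPKM in EZ, 7.70 and 2.38 FPKM in MZ) and SQD2 (47.8 and 64.2 FPKM in EZ, 168 and 140 FPKM in MZ), of sulfolipid synthesis, had the smallest p. In the nitrate list, with 1 of 9 above and 4 below, these were UPM1 (56.0 and 58.2 FPKM in EZ, 29.3 and 32.05 FPKM in MZ) and the nitrate reductase NIA2 (67.6 and 72.3 FPKM in EZ, 168 and 146 FPKM in MZ). Of 13 clock genes 3 were above and 3 below, and the RNA-binding proteins GRP7 (925 and 1378 FPKM in EZ, 129 and 390 FPKM in MZ; adjusted p = 0.0858) and GRP8 (273 and 343 FPKM in EZ, 89.1 and 187 FPKM in MZ) lay on the EZ side. CAB1 and RCA, the photosynthetic genes tested, overlapped, with CAB1 at 3.04 and 7.26 FPKM in EZ and 1.94 and 4.21 FPKM in MZ and RCA at 4.54 and 2.19 FPKM in EZ and 2.07 and 3.00 FPKM in MZ.

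Whether the zone difference of day 5 was particular to that age was tested as the difference at day 5 minus the mean difference of days 3, 4, 6 and 7. By limma, 0 of 18026 genes passed (0%), with 341 at an unadjusted p below 0.05 (1.89%). Across genes, the difference at day 5 and the mean difference of the other ages had r = 0.804 over 18026 genes, which share no library between the 2 measures. No gene passed, and 3 are named that had the smallest unadjusted p among nuclear genes whose average in one of the day 5 groups reached 10 FPKM (adjusted p = 0.99995 for each, limma). AT2G27140, the HSP20-like gene listed at 0 in EZ at day 5, differed by -4.12 at day 5, against 0.60, 0.15, 1.23 and 2.98 at days 3, 4, 6 and 7. AT5G60460, the Sec61 subunit, differed by -1.75 at day 5, against -1.23, -0.98, -0.80 and 0.77. NS2 (AT3G07420), an asparaginyl-tRNA synthetase, differed by -3.11 at day 5, with 0 and 0.679 FPKM in EZ and 9.65 and 10.7 FPKM in MZ, against 0.27, 0.40, -0.34 and 2.42 at the other ages. AT2G27140 and NS2 met the filter only through MZ at day 5, the group where they were high. Such a filter favours genes that differ at day 5. Weaker genes had smaller p, the smallest being that of AT3G50764 (adjusted p = 0.191, limma), which was listed at 0 in MZ at day 5.

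The medians of the heat shock, ribosome, replication and mitosis lists were above 0 at each age. So was the median of all genes tested, at 0.12, 0.04, 0.16, 0.05 and 0.31 at days 3, 4, 5, 6 and 7. The heat shock median was 2.24, 2.24, 2.04, 0.66 and 1.66 at days 3, 4, 5, 6 and 7, and the ribosome median 1.76, 1.21, 1.84, 1.12 and 1.65. For replication it was 1.70, 1.66, 1.34, 0.95 and 1.13, and for mitosis 1.72, 1.12, 1.30, 0.68 and 0.39. The xylem median, -1.18, -0.46, -1.84, -0.81 and -0.34, was lowest at day 5. Xylem marker sums under 30 FPKM were found in EZ replicate 1 of day 5 (7.58 FPKM), EZ replicate 2 of day 6 (27.5 FPKM), MZ replicate 2 of day 6 (26.6 FPKM) and MZ replicate 2 of day 7 (18.6 FPKM). Endodermal genes took both signs, at -0.07, -0.91, 0.34, -3.05 and 0.82. No member of any list passed the test of day 5 against the other ages.

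**Figure D5:**
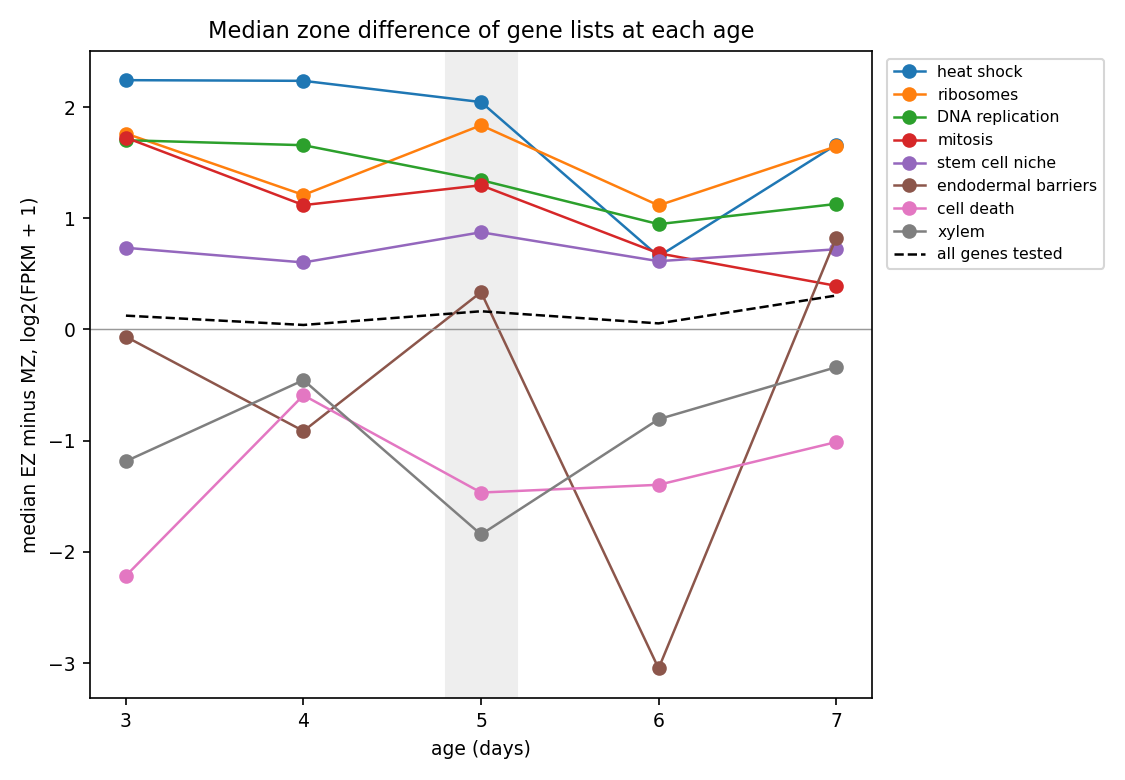
Median EZ minus MZ difference on the log2(FPKM + 1) scale (vertical axis) of 8 gene lists and of all genes tested at day 5 (dashed) at each age in days (horizontal axis), with day 5 shaded. Heat shock, ribosome, replication, mitosis and stem cell niche medians are above 0 at all 5 ages, cell death and xylem medians below 0, and the endodermal median changes sign.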

How the data were processed

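The authors deposited 1 table of FPKM values per gene for 20 libraries, 2 for each of 10 groups of zone and age. The tools behind them were Cufflinks 2.1.1 and TopHat2 2.0.13, with the TAIR10 build, per the submitters' processing notes; their settings are not given in the sources used here. Per the labels' protocols, cDNA was amplified from a low RNA input. Depth was worked out from the steps of low FPKM values, and 77.3 to 84.7% of such values in the day 5 libraries came out whole within 0.1 of a fragment. Genes with at least 1 FPKM in both day 5 libraries of either zone were fitted as log2(FPKM + 1) with limma 3.58.1 in R 4.3.3, with empirical Bayes moderation and a variance trend. The call threshold was an adjusted p of 0.05. With 2 libraries a group, a permutation test of 1 gene could not reach it. The fit was tested on simulated data.

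Named genes were the 10 largest called differences in each direction among nuclear genes whose higher group averaged 10 FPKM or more, with non-overlapping libraries and under 50% of their 32-base words in transcripts of other genes. To these were added up to 4 called members of each list, or else the 2 with the smallest p, 3 genes for the comparison with other ages, and a set of markers named in every case. The members and the gene lists were chosen with earlier results of these data known. Gene names, transcripts and promoters came from the TAIR10.1 assembly of RefSeq, matched by locus identifier, and promoters are the 250 bases before the annotated start. Alternatives were other pseudocounts, filters, scalings, variance settings and library sets, and each library left out in turn. Figures were drawn with matplotlib 3.10.9.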

Additional observations from a re-analysis of the deposited data

How the results depend on the processing

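The number of genes called, with 102 in all, 71 higher in EZ and 31 lower, moved by over 1.5 times under most alternatives, while no called gene changed sign in any of them. A pseudocount of 0.1 gave 67 calls with 45 higher, and one of 5 gave 619, with 497 higher and 122 lower. A filter at 5 FPKM gave 338, 245 and 93, and a filter at 1 FPKM in 2 of 20 libraries 62, 42 and 20. Quantile normalisation gave 400, 284 and 116, and median-of-ratios scaling 61 lower, with 59.3% of the calls higher in EZ against 69.6% as reported. Library weights gave 2834, 2133 and 701, and a fit with no variance trend 29, 21 and 8. The 4 day 5 libraries alone gave 1208, 979 and 229, and leaving out days 6 and 7, chosen after seeing the data, 1785, 1417 and 368. The cause was not tested.

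The replicate numbers were not taken to pair the samples: r between same-numbered EZ and MZ deviations was 0.05, 0.33, 0.09, 0.04 and 0.43 at days 3 to 7, positive throughout but under 0.1 at 3 ages. With the replicate number as a block 211 genes were called, 96 higher and 115 lower, and 76 of the 102 were among them.

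Leaving out 1 library at a time gave 1 to 1008 calls, 1 to 841 higher and 0 to 167 lower. The lone library of a group is then assumed to vary like the other groups. The low counts came without a library of day 5, and the high ones without a day 6 library, 1008 and 990 without MZ replicate 1 or 2 and 550 without EZ replicate 1. The test of day 5 against the other ages, with 0 calls, gave 22 with no filter, 1 with library weights, 1 with no variance trend, and 0 to 11 with 1 library left out. It could not be fitted without all ages. Among genes named but not called, DREB1A and RCA changed sign under quantile normalisation (-0.10 and -0.20). Over the fits that leave out a library, differences ran from -0.68 to 2.09 for CASP5, from -0.32 to 1.56 for CASP1, from -5.26 to 0.35 for XCP1, from -0.31 to 1.30 for SUC2, from -0.14 to 0.84 for DREB1A, from -0.14 to 0.66 for RCA and from -0.19 to 0.93 for SMB. Among the day 5 libraries depth was lowest in MZ replicate 2, at 6.56 M fragments.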
